A study of Mus musculus with 2 samples.

Results

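The H2 genes are the mouse major histocompatibility complex on chromosome 17, and they were taken as every protein-coding gene of GENCODE M21 on that chromosome whose symbol starts with H2-. This gave 34 of 21938 protein-coding genes: 9 class II genes, 24 class I genes and H2-Ke6, which carries the prefix by position and encodes a hydroxysteroid dehydrogenase. The interval around them ran from 100 kb before the first to 100 kb past the last gene, 3690 kb in all (chr17:33896017-37583552, mm10), and held 206 of the 49959 CTCF peaks of the genome's main chromosomes. CTCF binding had been measured by chromatin immunoprecipitation and sequencing in limb tissue of strain B6NCrl mouse embryos of 14.5 days. There was 1 group with 2 libraries, replicate 1 and replicate 2. The labels number them as biological replicates but give both the same pool of pulverised limbs of male and female embryos, untreated as far as the labels say. The spread between them may thus be biological or technical. Limb tissue at this stage mixes cartilage, muscle, skin, vessels and blood, and a peak list does not say in which of these cells a site was bound.

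Class I proteins present peptides made inside the cell to T cells, and class II proteins present peptides from outside it on specialised immune cells. Between both groups lies the class III span, which holds complement, heat shock and tumour necrosis factor genes but no H2 gene. CTCF is a zinc finger protein that binds a long directional motif and, with cohesin, holds the anchors of chromatin loops, which form mostly between motifs that point towards each other. In human and mouse immune cells, CTCF sites between class II genes are known to take part in class II expression together with the class II activator CIITA.

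Peaks are those of the deposited optimal list, derived from both libraries, and a gene had a promoter peak where a peak summit lay within 1 kb of any of its annotated transcription start sites. Signal is the deposited enrichment value of a peak, which has no unit. Signals of the optimal list were made on both libraries together and so stand on a higher scale than the replicate values, which come from the list of each library. Replicate values are given as replicate 1 and then replicate 2. The lists carry no read counts, so the depth behind a value is unknown. With 1 group there was no contrast to test, and genes and peaks are not replicates, so counts stand beside the same counts over all genes or peaks, with no test.

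Few H2 genes had CTCF at a promoter. A promoter peak was found at 5 of 34 H2 genes (14.7%, exact 95% interval 4.95 to 31.06, counting error only), against 33.4% of all protein-coding genes (7327 of 21938). The interval treats genes as independent, although several H2 genes lie in duplicated sequence, so it is no test. Within 5 kb of a start site the count was 16 of 34 (47.1%), against 52.0% of all protein-coding genes, so the gap was smaller in the wider window. Within 1 kb the count was 2 of 9 for class II genes (22.2%) and 2 of 24 for class I genes (8.33%), and H2-Ke6 also had one. Among class I genes, H2-K1 had no promoter peak, nor had any of the 7 D and Q genes or the 12 M genes, while 2 of the 4 T genes had one. The other protein-coding genes of the interval varied by stretch. A promoter peak was found at 7 of 14 in the proximal span (50%), 2 of 5 in the class II span (40%), 17 of 64 in the class III span (26.6%) and 19 of 66 in the distal class I span (28.8%). Inside the distal span the count was 16 of 26 between the Q and T genes (61.5%), but 2 of 33 among the M genes (6.06%) and 0 of 5 among the T genes. A low share was thus not particular to H2 genes in the M stretch. In the T stretch the other genes had no promoter peak, while 2 of the 4 T genes had one.

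**Figure D1:**
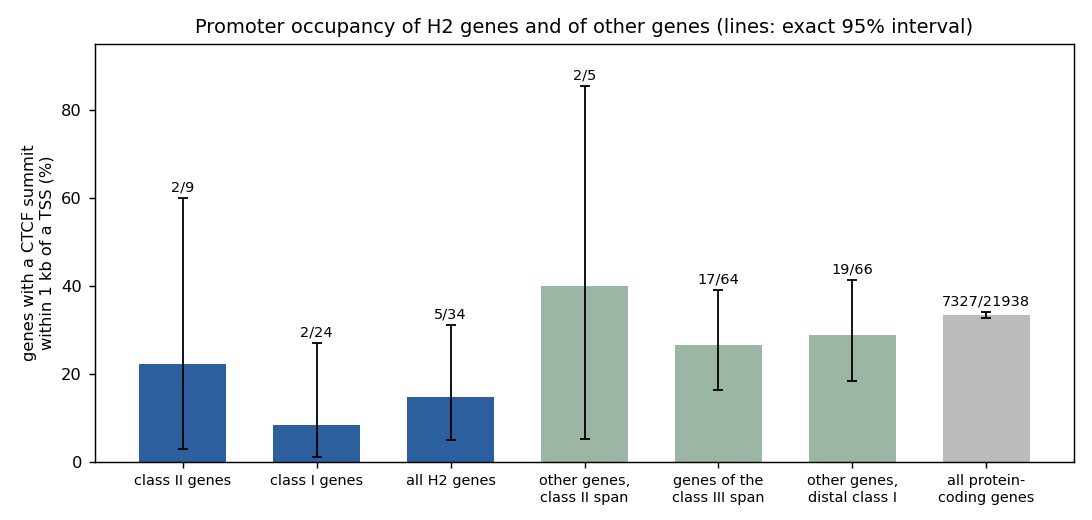
Share of genes with a CTCF summit within 1 kb of a transcription start site (y axis, percent), by class of H2 gene, for the other protein-coding genes of 3 spans, and for all protein-coding genes. Lines are exact 95% intervals, which treat genes as independent and are no test, and the labels give genes with a peak over all genes. Class I genes stand lowest, at 2 of 24.

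The strongest promoter peak of an H2 gene belonged to H2-DMa, which encodes a chain of H2-DM, the protein that helps to load peptide onto class II molecules. Its signal was 448.98, higher than or equal to 99.8% of all optimal peaks, with 236.53 and 218.61 in the libraries (227.57 ± 12.67, SD, n = 2). The summit lay at position 34135387, 241 bp upstream of an annotated start site. It also lay 15846 bp inside the gene model, which begins with longer transcripts that overlap Brd2. H2-Ab1, the beta chain of the class II molecule I-A, had a weak peak with a signal of 26.13 and library values of 12.67 and 12.1 (12.39 ± 0.41, SD, n = 2), 897 bp past an internal start site. At H2-Ke6 the signal was 13.42, with 9.7 and 6.63 in the libraries (8.16 ± 2.17, SD, n = 2), and this peak was not among the strongest of both replicate lists.

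The 2 class I genes with a promoter peak, H2-T24 and H2-T23, encode nonclassical molecules of the T region, and H2-T23 encodes Qa-1, which is read by receptors of natural killer cells. The peak of H2-T24 had a signal of 30.3 and lay 190 bp upstream of its start, with library values of 11.26 and 14.85 (13.06 ± 2.54, SD, n = 2). That of H2-T23 had a signal of 67.18, 762 bp past a start site, and values of 43.07 and 23.24 (33.15 ± 14.02, SD, n = 2). The replicates of H2-T23 thus lay further apart than those of the other members with a promoter peak. Neither peak carried a CTCF motif, and the same was true of H2-Ke6. The pseudogene H2-T-ps had a pair of motif-free peaks at its start, with signals of 44.65 and 11.79, where H2-T23 had a pair with 67.18 and 31.05. The 2 peaks of each pair overlapped. The weaker H2-T-ps peak had no summit within 100 bp in the full list of either library. The pseudogene H2-Pb also had a promoter peak (80.79), which makes 2 of the 11 H2 pseudogene entries (18.2%). The sequence at the starts of H2-T23 and H2-T-ps is repeated. Of all 36-base words within 1 kb of a start site, 52.0% at H2-T23 and 54.0% at H2-T-ps also occur elsewhere in the genome.

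The other 29 H2 genes had no optimal summit within 1 kb of a start site. In the full list of each library, which reaches far below the called peaks, H2-Ob, H2-Q6, H2-M9 and H2-M5 had a summit there in both libraries. The values were 8.03 and 7.15 at H2-Ob, 6.21 and 5.65 at H2-Q6, 4.93 and 4.08 at H2-M5, and 3.7 and 3.26 at H2-M9. A further 9 genes had a summit there in 1 library, and 16 genes had none in either. Repeated words made up a median of 7.0% around the start sites of H2 genes and 72.1% and 67.2% at H2-Q7 and H2-Q6, the highest of the 34. Their part in the missing promoter peaks was not tested.

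The motif-bearing peaks of H2-DMa and H2-Ab1 are printed as the strongest and a weak promoter site of a class II gene, each in the direction of its motif, from the GRCm38.p6 genome (mm10). Capitals mark the 20-base motif match, with 20 bases on each side.
H2-DMa promoter, chr17:34135396-34135455, plus strand: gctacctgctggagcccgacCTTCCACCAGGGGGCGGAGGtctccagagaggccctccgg
H2-Ab1 internal promoter, chr17:34264200-34264259, minus strand: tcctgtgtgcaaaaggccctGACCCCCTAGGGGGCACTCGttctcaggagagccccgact
A motif was called where a 20-base CTCF matrix, refined on strong peaks of other chromosomes, scored within 50 bp of the summit at or above what 5% of windows 1 kb away reached. The matrix was searched on both strands. The match at H2-DMa scored 21.25 and that at H2-Ab1 12.54, where the called minimum was 7.26.

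Several K, D, Q and T class I genes had their nearest CTCF site a few kilobases upstream of the gene. A summit 3 to 6 kb upstream of the gene start, with a motif running in the direction of the gene, was present at 6 of 24 class I genes (25%), against 4.64% of all protein-coding genes (1019 of 21938). These were H2-K1, H2-D1, H2-Q6, H2-Q7, H2-Q10 and H2-T3. The window was set after these positions had been seen, so the count describes them and tests nothing. H2-K1, H2-D1 and the Q genes encode classical class I molecules or molecules close to them in sequence, and H2-Q10 encodes a form that is secreted by the liver. H2-T3 encodes the thymus leukaemia antigen.

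The site upstream of H2-K1 had a signal of 79.54, with 41.83 and 39.04 in the libraries, and lay 3289 bp before the gene. At H2-Q10 the site lay 4211 bp before the gene and had a signal of 76.76, with 32.39 and 42.91. At H2-Q7 it lay 4111 bp before the gene and had 65.75, with 31.18 and 33.16. H2-Q6 had the lowest signal of the 4, 52.42, with 23.2 and 26.7, at 4179 bp before the gene. In each library, all 4 sites lay in the strongest 10% of that library's full list, which reaches far below the called peaks. Among the optimal peaks they stood near the middle. The signals at H2-K1, H2-Q10, H2-Q7 and H2-Q6 were higher than or equal to 59.18%, 58.15%, 53.59% and 46.58% of all optimal peaks. The sites upstream of H2-D1 and H2-T3 were stronger. The summit of H2-D1 lay 4404 bp before the gene, with a signal of 167.32 and library values of 91.57 and 76.05 (83.81 ± 10.97, SD, n = 2). The summit of H2-T3 lay 3463 bp before the gene, with a signal of 236.07 and library values of 136.52 and 100.1 (118.31 ± 25.76, SD, n = 2).

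The sites of H2-K1, H2-Q6, H2-Q7 and H2-Q10 were copies of 1 sequence. Windows of 100 bases centred on the motif and compared without gaps were 93% identical between H2-K1 and H2-Q10, 94% between H2-K1 and H2-Q6, and 89% between H2-K1 and H2-Q7. The interval held 3 further copies, upstream of the pseudogenes H2-K2 and H2-Q5 (95% identity to H2-K1 each) and 24391 bp before H2-Q1 (95%). The 7 copies are shown because they let the bound and the unlisted ones be compared base by base. Capitals mark the motif.
H2-K1, chr17:34003606-34003665, minus strand: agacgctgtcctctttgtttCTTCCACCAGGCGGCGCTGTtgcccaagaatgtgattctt
H2-K2, chr17:33982326-33982385, minus strand: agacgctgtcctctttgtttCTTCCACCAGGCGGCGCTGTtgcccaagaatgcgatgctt
H2-Q1, chr17:35295984-35296043, plus strand: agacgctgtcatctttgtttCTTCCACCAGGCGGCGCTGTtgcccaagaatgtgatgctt
H2-Q5, chr17:35389962-35390021, plus strand: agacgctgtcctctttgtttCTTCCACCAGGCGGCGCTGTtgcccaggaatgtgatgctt
H2-Q6, chr17:35420641-35420700, plus strand: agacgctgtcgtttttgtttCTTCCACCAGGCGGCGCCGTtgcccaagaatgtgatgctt
H2-Q7, chr17:35435014-35435073, plus strand: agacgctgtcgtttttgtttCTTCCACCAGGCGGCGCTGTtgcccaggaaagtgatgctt
H2-Q10, chr17:35465848-35465907, plus strand: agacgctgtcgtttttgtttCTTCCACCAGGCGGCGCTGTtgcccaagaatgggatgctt
Counted from 1 at the 5′ end of the motif, H2-Q6 differed from H2-K1 by T18C, and the other copies had the motif of H2-K1 unchanged. Their motif scores were 18.44, and 18.45 for H2-Q6. At 6 of the 7 copies an optimal summit lay within 100 bp, and such copies are called bound and the others unlisted. The copy of H2-K2 had a signal of 71.73 (45.46 and 28.57 in the libraries), and the copy before H2-Q1 had 65.04 (30.31 and 33.68). The signals of the 6 copies thus ran from 52.42 to 79.54, a narrow range beside the 5.64 to 468.51 of the interval. The copy upstream of H2-Q5 had no summit in the optimal list or in either full replicate list.

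Repeated sequence was high at these copies. Within 100 bp of the site, 60.2% of 36-base words at H2-Q5 occur more than once in the genome, against 60.8% at H2-Q6, 55.4% at H2-Q7, 42.8% at H2-K1 and 33.7% at H2-Q10. With 50-base words the shares were 39.5% at H2-Q5, 44.7% at H2-Q6, 37.5% at H2-Q7, 20.4% at H2-K1 and 5.9% at H2-Q10. A read no longer than a repeated word cannot be placed at 1 copy, while a longer one may be. The sources used here do not state how the authors treated reads with several placements. The part of read placement in the missing H2-Q5 peak was not tested. No other H2 gene had a stretch with over 48% identity to the H2-Q10 window from 12 kb before to 2 kb past its start, so the upstream sites of H2-D1 and H2-T3 were different sequences at a similar distance.

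Duplicated strong sites also flanked the K and D genes. A site 10138 bp past the start of H2-K2 had a signal of 238.33 (126.44 and 114.19), its copy past H2-D1 had 229.49 (108.86 and 120.74), and its copy before H2-Q1 had 218.81 (111.87 and 109.08). Identity to the H2-K2 site was 78% at H2-D1 and 91% at H2-Q1, and the H2-D1 copy joined the group through its likeness to the H2-Q1 copy. All 3 carried a motif, and the highest signal was 1.09 times the lowest.

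**Figure D2:**
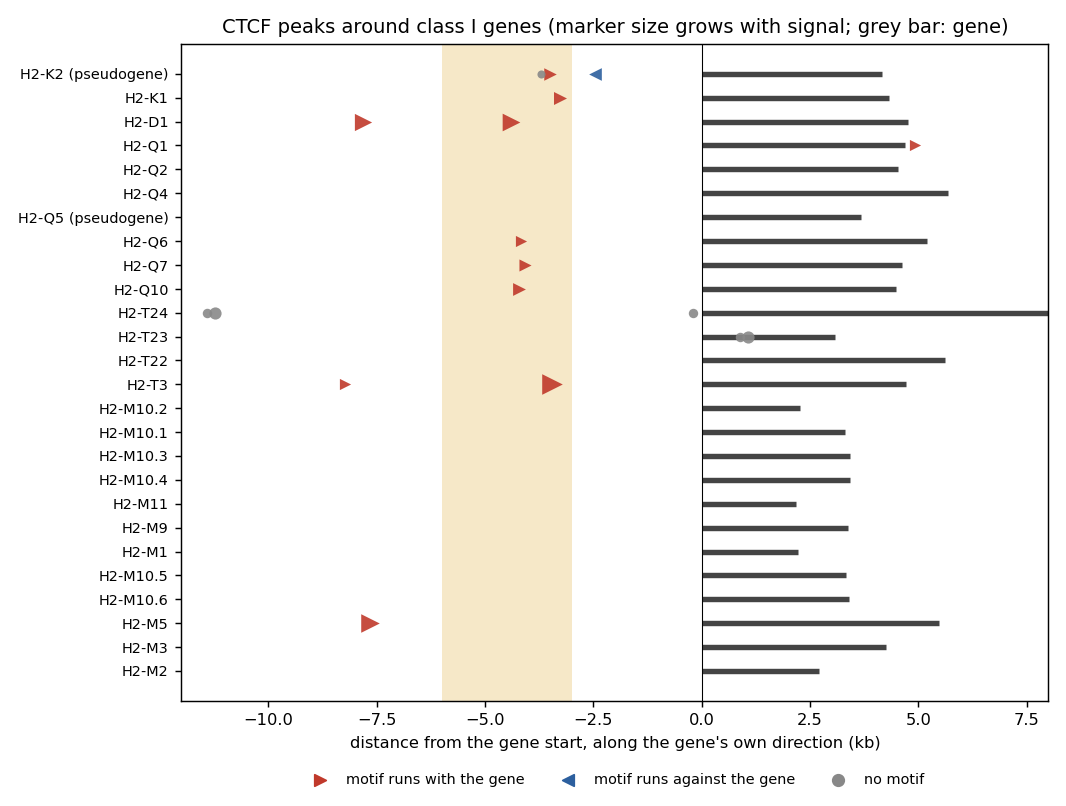
CTCF peaks around the start of each class I gene and of the pseudogenes H2-K2 and H2-Q5, by distance along the gene's own direction (x axis, kb, 0 at the gene start, upstream to the left). Triangles point with or against the gene as the motif does, grey circles have no motif, marker size grows with signal, and the shaded band is 3 to 6 kb upstream. The H2-T24 gene runs past the axis. Peaks of H2-K1, H2-D1, H2-Q6, H2-Q7, H2-Q10 and H2-T3 fall in the band, all pointing towards the gene.

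Close to the class I gene starts, motifs ran with the gene, and further out they ran both ways. From 12 kb before to 8 kb past the gene starts there were 10 such peaks, each next to 1 gene, and 10 of 10 motifs had the direction of the gene. Over all protein-coding genes this held for 52.0% of such pairs of gene and peak (8649 of 16630). Besides the 6 upstream sites these were a second peak further upstream of H2-D1, a second one upstream of H2-T3, a peak 7655 bp before H2-M5 with a signal of 187.08, and a peak 4911 bp past the start of H2-Q1 with 52.9. The sites of H2-K1, H2-Q6, H2-Q7 and H2-Q10 are copies of 1 sequence, so these 10 are not independent, and this window too was set after the positions had been seen. It ends short of the sites past the H2-M10 genes, which run against their genes. Within 12 kb either side of the start, 12 of 13 pairs of gene and peak ran with the gene (92.3%), against 52.2% over all protein-coding genes, the exception being a site past H2-M10.3. Within 20 kb either side it was 18 of 30 (60%), against 51.4% of such pairs over all protein-coding genes, and 7 of the 12 pairs that ran against the gene belonged to H2-M10 genes. The pseudogene H2-K2 had both kinds, with a peak 2461 bp before its start that ran against the gene.

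Duplicated CTCF sites were not limited to the Q genes. Of the 132 motif-bearing peaks of the interval outside repeat-masked sequence, 27 had at least 1 further copy at 80% identity or more within the interval. They fell into 13 groups with 45 copies in all, of which 29 had an optimal peak. In 7 groups, 2 or more copies had one. The groups were built from peaks that carry a motif, so the bound copies have one by choice, and only the state of the other copies is informative. The cause of a missing peak was not tested for any group.

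The 3′ end of H2-Q1 showed a peak whose 4 copies, in H2-D1, H2-K1 and the pseudogenes H2-K2 and H2-Bl, were unlisted and had changed motifs. The peak had a signal of 52.9 (25.16 and 26.99 in the libraries, 26.07 ± 1.3, SD, n = 2) and a motif score of 12.1. Copies with 93%, 88% and 93% identity lay at the 3′ ends of H2-D1, H2-K1 and H2-K2. The H2-Bl copy was less alike, with 81% identity. Part of its motif sequence was shifted against that of H2-Q1. Compared without gaps it thus differed at many positions, and its score is that of the window placed without gaps. None of the 4 had an optimal peak, and the H2-D1 copy had a value in replicate 1 only, 4.4. Their motif scores were 2.05 at H2-D1, -6.54 at H2-K1, -3.14 at H2-K2 and -15.8 at H2-Bl. The changes relative to H2-Q1 were A9G and G14A at H2-D1, A9G, G10A and G14A at H2-K1, and A9G, G12C and G14A at H2-K2. Only 1.2% of words at the H2-K1 copy and 10.2% at the H2-D1 copy were repeated, against 50.6% at the H2-Bl copy, 27.7% at the H2-K2 copy and 27.7% at the bound H2-Q1 site. The H2-Q1 site and its 3 closest copies are printed to show the changed bases.
H2-Q1 3′ end, chr17:35325305-35325364, plus strand: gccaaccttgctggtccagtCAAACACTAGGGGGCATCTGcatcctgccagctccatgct
H2-D1 3′ end, chr17:35267068-35267127, plus strand: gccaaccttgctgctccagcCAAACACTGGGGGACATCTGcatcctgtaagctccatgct
H2-K1 3′ end, chr17:33996214-33996273, minus strand: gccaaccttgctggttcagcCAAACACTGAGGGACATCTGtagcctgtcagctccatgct
H2-K2 3′ end, chr17:33974819-33974878, minus strand: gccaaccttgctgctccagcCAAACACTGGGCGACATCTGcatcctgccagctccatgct
The score of H2-Q1 lay above the called minimum of 7.26, and those of the 4 other copies lay below it.

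The H2-M10 genes are a family that in mouse is expressed in neurons of the vomeronasal organ together with pheromone receptors. They included 4 genes with a set of duplicated sites 10694 to 17152 bp past the gene start. All these sites ran against the gene. Each scored as a motif except copies of a second site past H2-M10.1, H2-M10.3 and H2-M10.5, which scored below the called minimum. A first site had 4 bound copies. Its signals were 136.94 past H2-M10.1 (70.92 and 66.91), 130.21 past H2-M10.3 (72.67 and 58.8), 121.07 past H2-M10.5 (63.74 and 57.95) and 45.28 past H2-M10.6 (19.24 and 27.12). The first 3 were close to each other and the fourth was lower in both libraries. The motif score did not follow this order, with 23.03 at H2-M10.6 and 20.77, 17.6 and 20.77 at H2-M10.1, H2-M10.3 and H2-M10.5. Another pair of copies, upstream of H2-M10.3 and upstream of H2-M10.5, had no optimal peak. The copy upstream of H2-M10.3 had a value of 5.41 in replicate 2 alone, and that upstream of H2-M10.5 had 12.61 and 7.23. Relative to H2-M10.1 they carried T3G with G14A and T3G with G14T, and 62.0% and 63.3% of their words were repeated, against 21.1% to 33.1% at the bound copies. Their motif scores were 17.59 and 18.98, still above the called minimum. The motif change and the repeated sequence went together here, and the part of either was not tested.

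A second M10 site was bound past H2-M10.6 alone, with a signal of 24.82 and library values of 12.16 and 15.19. Its motif score was 15.55, and the copies past H2-M10.1, H2-M10.3 and H2-M10.5, at 87%, 85% and 85% identity, scored 2.03, 4.06 and 3.33 and had no summit in the optimal list or in either full replicate list. They shared C5A and G14A, and their repeated words made up 19.3% to 31.3%, against 0.0% at H2-M10.6.
H2-M10.6 second site, chr17:36825731-36825790, minus strand: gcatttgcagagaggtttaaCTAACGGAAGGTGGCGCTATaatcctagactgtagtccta
H2-M10.1 second site, chr17:36309395-36309454, plus strand: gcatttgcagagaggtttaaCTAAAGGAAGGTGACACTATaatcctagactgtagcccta
H2-M10.3 second site, chr17:36355885-36355944, plus strand: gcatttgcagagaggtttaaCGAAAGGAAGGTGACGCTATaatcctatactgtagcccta
H2-M10.5 second site, chr17:36788581-36788640, minus strand: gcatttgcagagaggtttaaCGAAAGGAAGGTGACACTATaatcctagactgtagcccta
A further M10 site had the same motif, with a score of 16.87, at each of its 3 copies, and an optimal summit within 100 bp of each. Past H2-M10.6 its signal was 123.33 (68.06 and 57.42), past H2-M10.3 it was 64.84 (38.04 and 24.91), and past H2-M10.5 it was 55.4 (29.66 and 24.02). The summit past H2-M10.5 lay 99 bp from the centre of the copy, and no motif was called within 50 bp of it. The site past H2-M10.6 thus had the highest signal of this group and the lowest of the first one.

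Several unlisted copies shared a change at position 14 of the motif. In groups that held both bound and unlisted copies, 14 unlisted copies had at most 4 changes in the motif, and 8 of them had lost the guanine at position 14. Bound copies served as the standard and were taken for having a motif, so no count of theirs is set beside this. The matrix gives guanine a share of 89.4% there. The position was picked after the sequences had been seen, and the 8 copies came from 3 groups, so they are not 8 independent changes. The remaining unlisted copies included some with an intact motif. A copy upstream of H2-T23 scored 23.09 and had a value of 11.32 in replicate 2 alone. Its bound copy, with 99% identity, lay upstream of H2-T-ps, scored 25.6 and had a signal of 39.67 (17.19 and 24.11). Both stood in sequence with 69.9% repeated words.

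**Figure D3:**
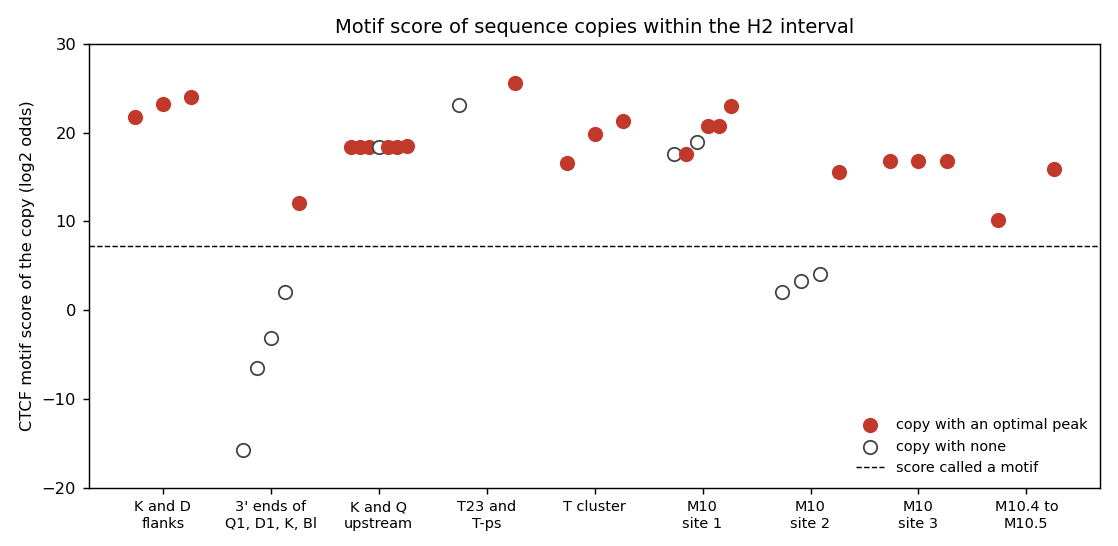
CTCF motif score of each copy (y axis, log2 odds) in 9 groups of duplicated sites near H2 genes. Filled circles have an optimal peak, open circles have none, and the dashed line is the score called a motif. Open circles lie below the line in the groups at the 3′ ends of H2-Q1, H2-D1, the K genes and H2-Bl and at the second M10 site, and above it in the K and Q upstream group, the T23 group and the first M10 site.

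The T region showed how much signal can differ between copies in unique sequence. The site upstream of H2-T3 with a signal of 236.07 had a copy 18285 bp upstream of H2-T22 with 137.73 (74.45 and 63.46) and a copy 10618 bp upstream of the pseudogene H2-T10 with 16.46 (9.19 and 7.33). Identity to the H2-T3 site was 92% and 93%, and 0.0% of words were repeated at any of the 3. The motif scores were 21.34, 19.91 and 16.54, in the order of the signals. Relative to H2-T3, the H2-T22 copy carried G1A and C8T, and the H2-T10 copy G1A and T12A.
H2-T3 upstream, chr17:36193719-36193778, minus strand: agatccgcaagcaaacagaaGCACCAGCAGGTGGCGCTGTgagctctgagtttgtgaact
H2-T22 upstream, chr17:36061002-36061061, minus strand: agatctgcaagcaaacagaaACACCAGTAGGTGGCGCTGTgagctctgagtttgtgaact
H2-T10 upstream, chr17:36132053-36132112, minus strand: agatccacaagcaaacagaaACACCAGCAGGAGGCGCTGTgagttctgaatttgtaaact
The strongest copy had 14.3 times the optimal signal of the weakest, against 1.52 times over the 6 bound copies upstream of the K and Q genes.

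CTCF peaks were unevenly spread along the interval. The whole interval held 5.59 peaks per 100 kb, against 2.3 on chromosome 17 and 1.83 on all main chromosomes. Without the H2 genes, it also held 4.15 protein-coding genes per 100 kb, against 1.11 for all protein-coding genes on chromosome 17. The density was highest in the proximal span, which holds H2-K1 and H2-Ke6, at 11.7 (23 peaks). It was 9.23 in the class II span (23 peaks), 6.73 in the class III span (62 peaks) and 4.41 in the distal class I span (98 peaks). Inside the distal span the peaks lay mainly between the class I clusters. The stretch between the Q and T genes, which holds Pou5f1, Tubb5 and other genes outside the complex, had 9.79 per 100 kb, against 3.3 among the D and Q genes, 4.33 among the T genes and 2.08 among the M genes. Repeated words made up 48.7% of the D and Q stretch, 45.0% of the T stretch and 22.0% of the M stretch, against 10.8% between the Q and T genes. Their part in these densities was not tested. The full replicate lists, which hold weaker sites as well, gave 13.7 and 11.8 per 100 kb among the D and Q genes, 11.9 and 8.67 among the T genes and 9.26 and 9.42 among the M genes, against 11 in each on all main chromosomes. Between the Q and T genes they gave 35.6 and 34.1.

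**Figure D4:**
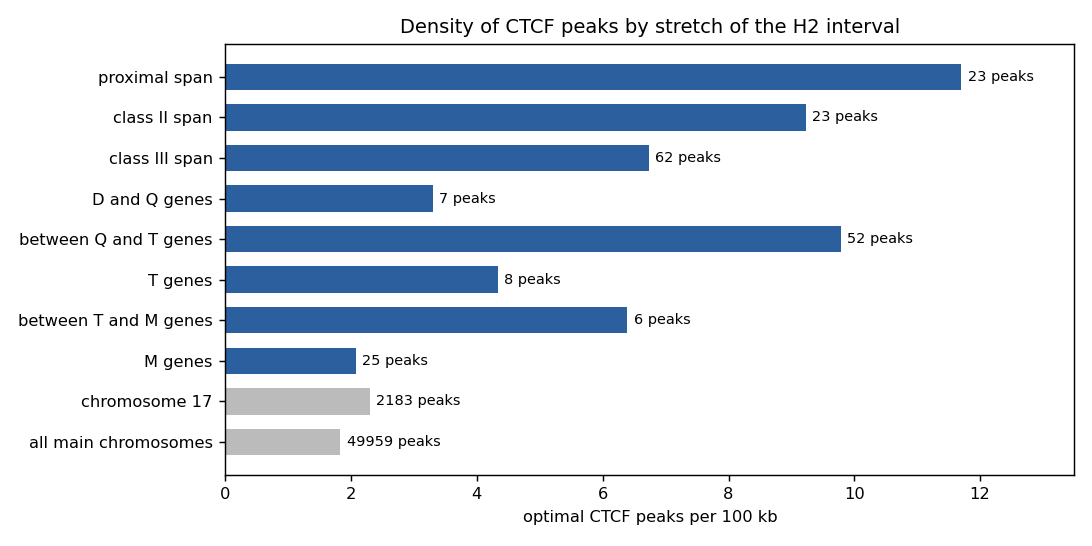
Optimal CTCF peaks per 100 kb (x axis) in successive stretches of the H2 interval, with chromosome 17 and all main chromosomes at the bottom. Labels give the number of peaks. The proximal span reaches 11.7 and the stretch between the Q and T genes 9.79, and the M genes stand at 2.08.

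**Figure D5:**
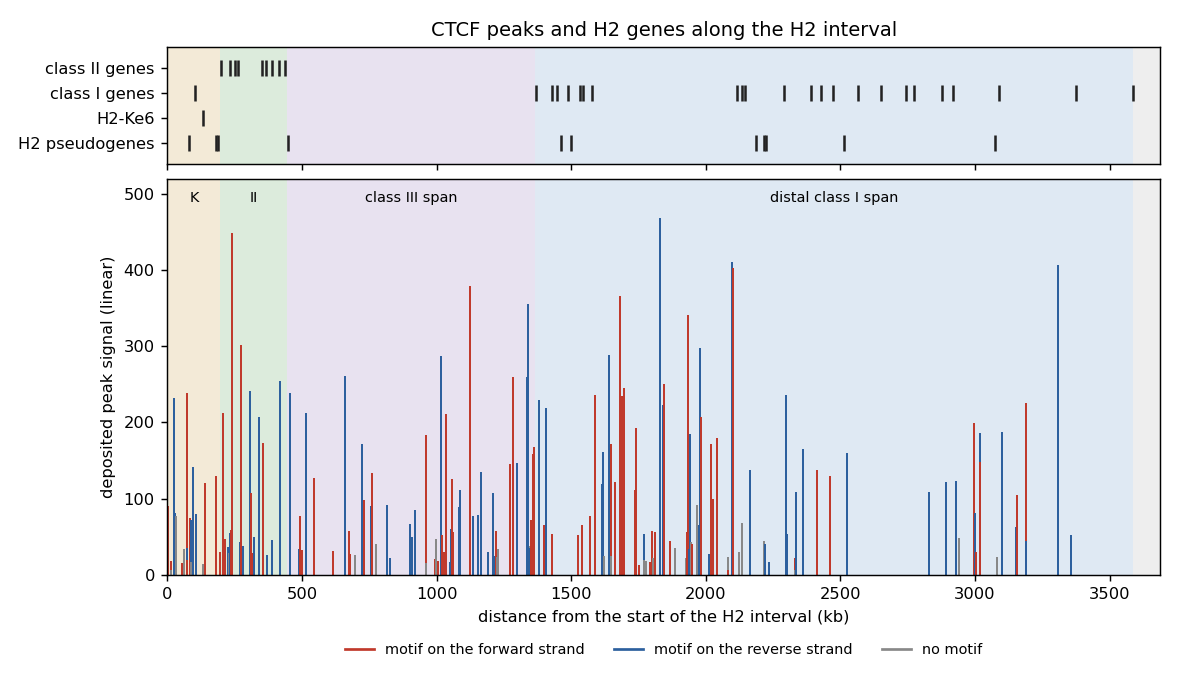
Signal of the 206 CTCF peaks (lower panel, y axis, linear) by distance from the start of the H2 interval (x axis, kb), with the positions of H2 genes and pseudogenes above. Colours give the motif strand, and shading gives the spans, of which K marks the proximal one, II the class II span and the grey end the 100 kb past the last gene. Peaks thin out among the M genes in the right part, and none lies in the last 100 kb.

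Some class I genes lay far from any peak. The longest stretch without one between summits was 307.7 kb and held H2-M10.4, H2-M11, H2-M9 and H2-M1. It held 13 summits in the full list of each replicate, and 27.7% of its words were repeated. The next was 119.0 kb among olfactory receptor genes, with no H2 gene, and the third was 95.4 kb with H2-Q2 and H2-Q4 and 55.6% repeated words. From the last summit to the end of the interval, 332.8 kb with H2-M3 and H2-M2 and 15 olfactory receptor genes had no peak. H2-M3 presents peptides with a formylated methionine, as made by bacteria. The nearest summit was 232812 bp away from H2-M2 and 128503 bp from H2-M11. H2-M9 and H2-M1 lay 83585 and 54032 bp from one, H2-M10.4 43762 bp and H2-Q4 41056 bp. Across all H2 genes the median distance from the gene start to the nearest summit was 7831 bp, against 7418 bp for all protein-coding genes. Within 100 kb either side of the start, class II genes had 11 to 23 peaks, K, D, Q and T genes 6 to 22, and M genes 0 to 12. The medians were 16 for class II genes, 10 for all class I genes and 3 for M genes. For all protein-coding genes on chromosomes with a peak the median was 6, with a range of 0 to 36.

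Motifs and signals also differed between the spans. Of the class II peaks, 95.7% carried a motif, against 83.9% of the class III peaks, 77.6% of the distal class I peaks and 83.3% of all optimal peaks. At a stricter score, which 1% of flanking windows reach, the order of the first 2 turned, with 65.2% in the class II span, 72.6% in the class III span and 61.2% in the distal class I span. All 7 peaks among the D and Q genes had a motif, but only 3 of the 8 peaks among the T genes. The remaining T peaks were the overlapping pairs at H2-T23 and H2-T-ps and the peak of H2-T24. The T stretch ended at the start of H2-T3, so the motif-bearing sites upstream of that gene were not counted in it. The median signal was 49.96 in the class II span, 69.3 in the class III span and 66.5 in the distal class I span, against 58.4 for all peaks. The quartiles of the 3 spans, 35.3 to 190.0, 32.6 to 137.0 and 33.5 to 177.0, overlapped broadly. Of the interval's peaks, 81.6% were among the strongest of both replicate lists, against 81.2% of all optimal peaks. Of the 206 peaks, 197 had a summit in both full replicate lists. Across them, Spearman's rho between replicate 1 and replicate 2 signals was 0.953, against 0.935 over all optimal peaks. These values describe peaks that share libraries, and the list was chosen for agreement between them.

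The class II span held some strong peaks, although its median signal was below that of all peaks. Besides H2-DMa, the highest signals in the class II span were 301.18 upstream of Tap1 (156.96 and 142.8 in the libraries), 254.26 in an intron of H2-Eb1, the beta chain of I-E (117.25 and 136.92), 241.1 at Tap2 (135.27 and 106.59) and 212.28 past H2-Oa (102.79 and 110.78). H2-Oa and H2-Ob encode the chains of H2-O, an inhibitor of H2-DM. The nearest summit to H2-Ob lay 3727 bp upstream of it, with a signal of 207.08 and library values of 106.89 and 98.76. At H2-Aa, the alpha chain of I-A, a peak with 45.46 lay in an exon, and its replicate values were 22.67 and 23.11 (22.89 ± 0.31, SD, n = 2). H2-Oa had a weak one 1227 bp upstream of its start, with 29.84 and library values of 15.9 and 13.21. H2-DMb1 had no peak within 10 kb either side, and neither had H2-Eb2.

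In the class III span the strongest peaks lay in an intron of Vwa7 (379.42, with 193.18 and 183.39) and at the shared promoter region of Nfkbil1 and Atp6v1g2 (355.59, with 178.53 and 176.31). Duplicated sites also lay beside the complement and steroid hydroxylase genes, with 22.34 near C4b (10.47 and 9.59) and 49.87 near Cyp21a1 (27.93 and 23.07) at 92% identity. The genes the span is known for had none at their promoters. This held for the cytokine genes Tnf, Lta and Ltb, the complement genes C2, Cfb and C4b, and the heat shock genes Hspa1a, Hspa1b and Hspa1l. In the distal class I span the strongest peak had 468.51 (251.2 and 224.59) and lay 21166 bp upstream of Ddr1, a collagen receptor gene. The next had 411.46 (208.71 and 200.53) and lay within 1 kb of the start of the noncoding gene A930015D03Rik, and the third had 407.46 (202.43 and 204.95) and lay 2816 bp upstream of the olfactory receptor gene Olfr94.

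Genes other than the H2 genes were looked up from 2 lists, one of known genes of the H2 region with varied functions and one of antigen presentation genes on other chromosomes. Of 25 genes in the region list, 8 had a promoter peak (32%). Of its antigen presentation genes, Tap2, a subunit of the transporter that carries peptides to class I molecules, had a signal of 241.1. Tapbp, the tapasin gene, which bridges that transporter and class I molecules, had 232.48 (117.45 and 116.84). Tap1 and the immunoproteasome genes Psmb8 and Psmb9 had none. Of its other genes, Brd2 had 36.08 (24.64 and 10.04 in the libraries), Rxrb 120.11 (57.24 and 64.94) and Daxx 18.18 (3.26 and 12.4). Ddx39b had 37.62 (13.43 and 22.95), Pou5f1 119.14 (63.59 and 58.03) and Gabbr1 105.29 (55.44 and 48.14). The libraries lay far apart at Daxx and Brd2. Of 21 genes in the list from other chromosomes, 5 had one (23.8%). They were Erap1, a peptide trimming enzyme (163.47), the chaperone genes Calr (96.29) and Pdia3 (74.02), the class I activator Nlrc5 (21.96) and the proteasome gene Psmb10 (21.32). B2m, which encodes the light chain of class I molecules, had none, and neither had the class II regulators Ciita and Rfx5. Both shares stood near or below the 33.4% of all protein-coding genes.

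Neighbouring motifs of the interval ran in the same direction in 57.2% of 166 consecutive pairs, against 52.3% over all main chromosomes. The longest run held 10 forward motifs over 101.9 kb between the Q and T genes. A run of 6 forward motifs over 183.1 kb began at the 3′ end of H2-Q1, took in the sites upstream of H2-Q6, H2-Q7 and H2-Q10 and ended at Pou5f1. A run of 6 reverse motifs covered 407.6 kb of the M genes.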

How the data were processed

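CTCF binding in 2 libraries of 1 pool of limb tissue was analysed from 4 peak lists that the authors deposited for mm10. Signal values are used as the authors deposited them. Per the notes deposited with the libraries, each replicate list (300000 peaks) came from the filtered alignments of that library and 1 more file. The conservative (48829) and optimal (49970) lists came from both replicate lists and the pooled list. Aligner, peak caller, control and thresholds are not stated in these notes. Signal is never negative and stands on the scale of its own list.

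Genes came from GENCODE M21 and sequence from GRCm38.p6, of which mm10 is the browser name. Library values were read at the closest summit within 100 bp in that library's list. The CTCF matrix was refined in 10 rounds on the strongest 1000 optimal peaks of odd-numbered autosomes other than chromosome 17. A motif lay within 50 bp of the summit at a score reached by 5% of windows 1 kb away. Repeated words are 36-base words found more than once in the main chromosomes, on either strand. Copies are windows of 100 bases, 80% or more identical without gaps to at least 1 other of the group. The matching, motif, word and copy steps were tested on simulated data. Python 3.11.15 with numpy 2.4.6, pandas 2.3.3 and scipy 1.17.1 was used.

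Named items are all H2 genes, the strongest peaks and promoters of each span, the longest stretches without a peak, and 2 gene lists of 26 and 22 symbols, of which 25 and 21 were found. Not every item the rule takes is printed. Members and lists were chosen with earlier results of these data known. The upstream window, the direction count, the copies and position 14 were added after values had been seen. No tests were run, since there is 1 group. Alternatives were the conservative list, the strongest 50% of peaks, the strongest peaks of each replicate list alone, other promoter windows, the first start site, a stricter motif score, other matching distances and 50-base words.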

Additional observations from a re-analysis of the deposited data

How the results depend on the processing

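Counts of promoters were small, and the choice of peaks and windows moved them. With the strongest 50% of peaks, promoter peaks were found at 2 H2 genes (5.88%, H2-DMa and H2-T23), 1 of class II and 1 of class I, and at 1, 9 and 9 other genes of the class II, class III and distal class I spans, against 17.2% of all protein-coding genes. The 500 bp window left 3 H2 genes (8.82%), 1 of class II and 1 of class I, against 26.8% of all protein-coding genes. The 5 kb window gave 16 H2 genes (47.1%), 6 of class II and 9 of class I, and 37 and 33 other genes of the class III and distal class I spans, against 52.0% of all protein-coding genes, so the gap between H2 genes and all genes was much smaller there. The first start site alone left 3 H2 genes (8.82%), 0 of class II, and 10 genes of the class III span, against 26.1% of all protein-coding genes. H2-DMa was lost there because its peak lies at an internal start. The conservative list gave the same number of H2 genes, with H2-Ob in place of H2-Ke6, and 1 other gene of the class II span. Leaving out either replicate left the same 5 H2 genes.

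The strongest 50% of peaks held 9 peaks of the class II, 33 of the class III and 54 of the distal class I span. Their median percentiles were 73.3, 46.9 and 59.5. These were taken among the strongest 50% alone and so stand on another scale than percentiles of whole lists. The motif shares were 100% in the class III and 96.3% in the distal class I span. The stricter motif score (1% of flanking windows) gave motif shares of 65.2%, 72.6% and 61.2% in these spans, which puts class II below class III. The conservative list gave 81.7% and 81.2% in the class III and distal class I spans. Leaving out a replicate gave median percentiles of 43.6 to 44.8 in the class II and 54.1 to 58.9 in the distal class I span, and motif shares of 83.9% to 86.9% in the class III span and 79.8% in the distal class I span both times. The cause of these shifts was not tested.

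Chosen after seeing the data, the count of 6 class I genes with an upstream site kept the same 6 genes with the conservative list and without either replicate. It was 7 with a window of 2 to 8 kb, which adds H2-M5, and 5 at the stricter motif score, which drops H2-D1. The share of motifs near class I genes that run with the gene was 92.3% within 12 kb and 60% within 20 kb either side of the start. The same number of bound copies of the K and Q upstream site, 6 of 7, was found with the conservative list and without either replicate. No paired analysis was possible because there is 1 group. Values rest on 2 libraries of 1 pool, on deposited signals of unknown depth, and on gene models in which a distant alternative start counts as a promoter. Repeated words were frequent in the D, Q and T stretches, and their part in the missing peaks was not tested.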
